A study of Mus musculus with 16 samples.

Results

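Chn1os3, Mterf2 and Slc15a3 are 3 rows of the gene count tables that rose with mechanical loading of the mouse tibia, each lying over exons of a less familiar gene on the other DNA strand. They were 3 of 47517 rows in the tables and 3 of the 7192 rows with enough fragments to be tested for loading. Chn1os3 lies opposite Chn1, Mterf2 opposite Tmem263 and Slc15a3 opposite Tmem132a. They were chosen by their measured rise, the loaded against the non-loaded limbs in these same libraries, where the gene opposite is not an established loading gene, so their rise is described here and not tested. The measured values of the rows on the other strand and of the neighbouring rows played no part in the choice, nor did the genotype contrasts as such. The genotype contrasts in non-loaded or in loaded limbs use the same libraries as the loading contrasts, so they are not independent of the choice.

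The samples were pieces of tibial cortical bone from 16-week-old male mice, 4 labelled Ctrl and 4 labelled NT3-Cre+ (NT3 from here on), in which NIK, the NF-kB inducing kinase, was switched on in cells of the bone-forming lineage. The allele behind NT3, the Cre driver and the alleles that Ctrl mice carry are not given in the sources used here. In every mouse the right tibia was compressed along its axis on 9 days, with 1200 cycles a day, and the left tibia served as the non-loaded limb. Both genotypes were brought to -2000 microstrain, which took a peak of 8.7 N for Ctrl tibiae and 10.0 N for those of NT3 mice. All mice were anesthetized with isoflurane and were given buprenorphine. Collection followed the final loading session by 4 hours, and muscle and, by centrifugation, marrow were removed. The 4 groups of 4 libraries were therefore Ctrl non-loaded, Ctrl loaded, NT3 non-loaded and NT3 loaded, with the limbs paired within each mouse.

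Loading of long bone makes osteoblasts lay down new collagen matrix on the bone surface, and NIK is the kinase that switches on the non-canonical branch of NF-kB signalling. The genes at the 3 loci have unrelated known roles. Chn1 encodes alpha-chimaerin, a diacylglycerol-binding GTPase-activating protein for Rac that acts in axon guidance, and Chn1os3 is a long noncoding RNA on its other strand. Mterf2 encodes a mitochondrial protein of the MTERF family, which acts on transcription and translation of mitochondrial DNA, and Tmem263 encodes a small membrane protein linked to growth and bone mass. Slc15a3 encodes a proton-coupled transporter of histidine and small peptides on endolysosomes, known from macrophages and dendritic cells, and Tmem132a encodes a membrane protein linked to Wnt secretion.

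The members sit on 3 chromosomes, and each shares a different kind of sequence with the gene opposite. On GRCm38 (GENCODE M21), Chn1os3 runs over chr2:73596526-73616012 on the plus strand, at the 3′ end of Chn1, which runs over chr2:73610660-73775346 on the minus strand. Their exons shared 220 bases in 3 stretches, 7.22% of the exon bases of Chn1os3, and 113 of these bases were coding in Chn1. The longest coding stretch was the whole of exon 12 of 13 of a Chn1 transcript, 106 bases at chr2:73614662-73614767. Mterf2 (chr10:85119433-85128027, minus strand) and Tmem263 (chr10:85102627-85120618, plus strand) shared 1 stretch of 398 bases at chr10:85120221-85120618, 22.7% of the exon bases of Mterf2. All 398 bases were coding in Mterf2 and none was coding in Tmem263. Slc15a3 (chr19:10839727-10859362, plus strand) and Tmem132a (chr19:10857822-10869940, minus strand) met tail to tail over 1541 bases at chr19:10857822-10859362, 28.1% of the exon bases of Slc15a3. None of these was coding in Slc15a3 and 1041 were coding in Tmem132a. Neither the annotation used for counting nor its strand setting is given in the sources used here, so fragments of a member and of the gene opposite cannot be told apart within the shared bases.

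The first 30 of the 106 shared bases of that Chn1 exon are shown on the minus strand, the strand of Chn1, as an example of coding sequence of the opposite gene that lies inside a member row.
Chn1 exon under Chn1os3: aaattatggaccctgacgagcaattggaga

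Promoter windows, from 250 bases before to 50 after the RefSeq start (GRCm38.p6), were at hand for both strands of the Chn1os3 and Mterf2 loci, and they are shown so that the starts on the 2 strands of a locus can be compared. Capitals mark the matches to 5 motifs that were searched on both strands: AP-1 (TGANTCA), RUNX (TGTGGT), TEAD (GGAATG), TCF/LEF (CTTTGAT) and the NF-kB consensus. The windows are Chn1os3 at chr2:73596276-73596575 (plus strand), the far start of Chn1 at chr2:73775297-73775596 (minus strand), Mterf2 at chr10:85127978-85128277 (minus strand) and Tmem263 at chr10:85102377-85102676 (plus strand).
Chn1os3: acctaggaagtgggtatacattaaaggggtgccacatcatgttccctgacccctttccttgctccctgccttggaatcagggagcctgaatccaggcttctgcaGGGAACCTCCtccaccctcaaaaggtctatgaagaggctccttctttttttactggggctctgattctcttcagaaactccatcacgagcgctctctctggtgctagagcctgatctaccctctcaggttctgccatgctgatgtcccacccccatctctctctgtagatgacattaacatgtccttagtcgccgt
Chn1: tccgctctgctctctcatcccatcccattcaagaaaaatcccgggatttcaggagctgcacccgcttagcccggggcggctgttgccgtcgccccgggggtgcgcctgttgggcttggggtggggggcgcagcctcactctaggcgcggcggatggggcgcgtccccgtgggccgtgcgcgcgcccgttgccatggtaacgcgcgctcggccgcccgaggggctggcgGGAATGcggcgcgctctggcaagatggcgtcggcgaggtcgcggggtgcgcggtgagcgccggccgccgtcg
Mterf2: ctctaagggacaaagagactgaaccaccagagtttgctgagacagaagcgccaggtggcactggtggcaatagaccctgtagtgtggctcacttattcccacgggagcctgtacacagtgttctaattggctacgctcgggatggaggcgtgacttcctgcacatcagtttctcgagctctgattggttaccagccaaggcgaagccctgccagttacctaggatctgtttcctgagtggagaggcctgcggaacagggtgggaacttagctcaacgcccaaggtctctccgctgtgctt
Tmem263: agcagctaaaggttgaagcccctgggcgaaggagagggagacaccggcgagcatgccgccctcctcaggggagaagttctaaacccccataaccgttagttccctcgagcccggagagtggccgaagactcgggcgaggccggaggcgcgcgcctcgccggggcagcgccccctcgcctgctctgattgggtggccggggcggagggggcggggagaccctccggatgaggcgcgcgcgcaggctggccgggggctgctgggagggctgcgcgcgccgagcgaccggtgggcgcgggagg

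The windows differed in base composition. The Chn1 window held 43 CpG dinucleotides at 73.3% GC and the Tmem263 window 35 at 73.3% GC. The Chn1os3 window held 4 CpG at 51.7% GC and the Mterf2 window 10 at 55.0% GC. The Chn1os3 window had 1 NF-kB consensus match starting 146 bases before the start, a motif present in 8.18% of 27025 mouse promoter windows. The Chn1 window had 1 TEAD match, a motif present in 14.6% of windows. The window at the nearer start of Chn1 (chr2:73660374-73660673, minus strand), not shown, held 5 CpG at 47.7% GC and no match. No match was found in the Mterf2 and Tmem263 windows, for motifs present in 7.93% (AP-1), 16.9% (RUNX) and 3.72% (TCF/LEF) of windows. Promoters of Slc15a3 and Tmem132a are not shown.

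Levels are given as CPM, the fragment count of a row scaled to the size of its library, after TMM normalization, a scaling between libraries by their typical row. Libraries were small, with 758394 to 1064391 fragments assigned to rows, and a member held 36 to 317 fragments in a library. The mean RNA integrity number in the study was 5.4. The files come from whole bone pieces, so more cells of a type and more RNA per cell cannot be told apart. Within a group, nothing in the labels says more of the replicates than that they come from separate mice, and each mouse gave a loaded and a non-loaded limb. In the genotype comparisons p-values measure the spread between mice. For loading, with the mouse as a block, they measure the spread between mice of the change from limb to limb.

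Chn1os3 was the member with the strongest response in Ctrl. Its levels in Ctrl mice 1 to 4 were 102.3, 56.1, 61.5 and 126.2 CPM in the non-loaded limb and 341.1, 173.9, 414.7 and 308.3 CPM in the loaded limb. In NT3 mice 1 to 4 they were 168.8, 163.7, 95.5 and 85.4 CPM non-loaded and 304.9, 259.9, 171.1 and 122.0 CPM loaded. Every Ctrl loaded limb lay above every Ctrl non-loaded limb, while NT3 limbs overlapped between loading states because NT3 mice 1 and 2 started high and mouse 4 stayed low. The loaded limb was higher in all 8 mice. The ratio of loaded to non-loaded was 3.33, 3.10, 6.75 and 2.44 in Ctrl and 1.81, 1.59, 1.79 and 1.43 in NT3. The fitted log2 change was 1.83 (SE 0.16) in Ctrl, a 3.57-fold rise, and 0.73 (SE 0.16) in NT3, a 1.65-fold rise.

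Mterf2 rose less in Ctrl and was the most scattered member in non-loaded Ctrl bone. In Ctrl mice it measured 55.3, 68.9, 38.8 and 124.1 CPM non-loaded and 137.1, 213.5, 137.4 and 210.1 CPM loaded. In NT3 mice it measured 83.9, 93.7, 77.4 and 50.1 CPM non-loaded and 200.4, 166.3, 106.6 and 71.5 CPM loaded. Ctrl mouse 4 had the highest non-loaded level and the smallest Ctrl ratio, 1.69 against 2.48, 3.10 and 3.54 in mice 1 to 3, and even so its non-loaded limb lay below every loaded Ctrl limb. NT3 ratios were 2.39, 1.77, 1.38 and 1.43, inside the Ctrl range in mice 1 and 2. The fitted log2 change was 1.34 (SE 0.18) in Ctrl, 2.53-fold, and 0.80 (SE 0.18) in NT3, 1.74-fold.

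Slc15a3 was the steadiest member in non-loaded Ctrl bone. Its Ctrl levels were 99.96, 118.0, 97.1 and 116.0 CPM non-loaded and 274.3, 185.8, 299.6 and 211.2 CPM loaded. Its NT3 levels were 181.8, 157.0, 166.4 and 93.9 CPM non-loaded and 267.2, 241.7, 209.3 and 162.6 CPM loaded. The non-loaded Ctrl limbs varied by 9.98% around their mean, which is what counting alone gives at these fragment numbers (10.1%), while Chn1os3 varied by 38.8% and Mterf2 by 51.6% where counting gives 11.3% and 12.3%. Ratios of loaded to non-loaded were 2.74, 1.58, 3.09 and 1.82 in Ctrl and 1.47, 1.54, 1.26 and 1.73 in NT3, and they overlapped between genotypes. The fitted log2 change was 1.15 (SE 0.15) in Ctrl, 2.22-fold, and 0.57 (SE 0.15) in NT3, 1.48-fold.

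**Figure D1:**
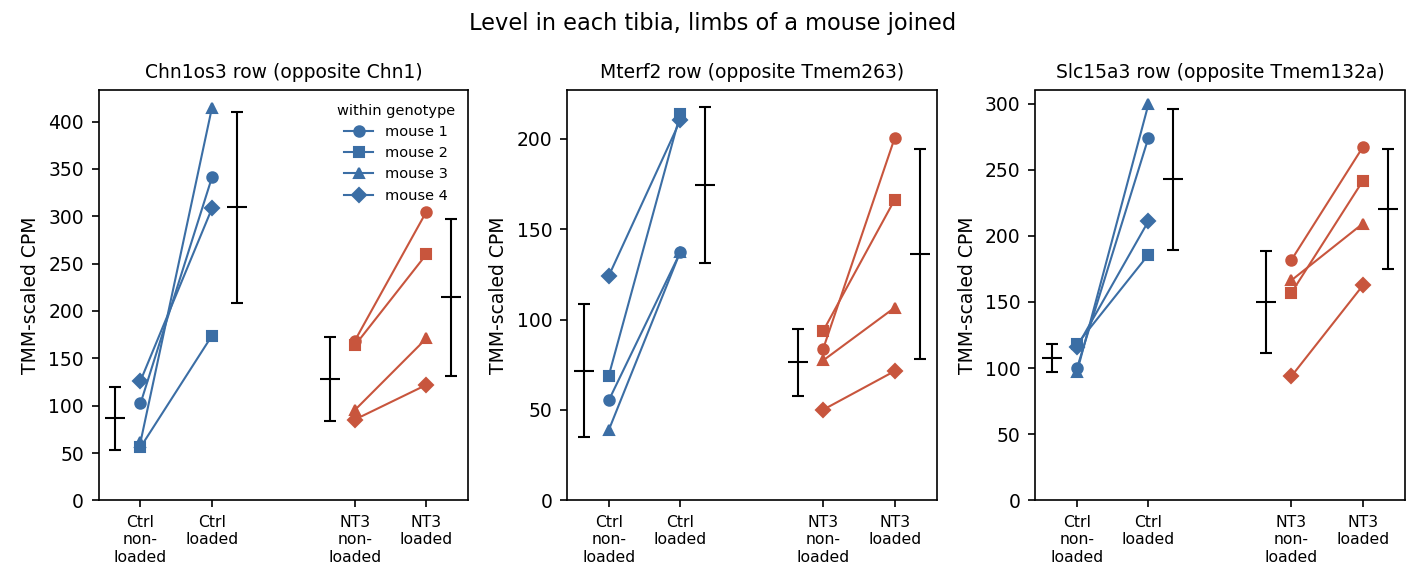
Levels of the Chn1os3, Mterf2 and Slc15a3 rows in CPM (vertical axis) in the 4 groups (horizontal axis), with 1 point per library, lines joining the limbs of a mouse, and bars for the mean ± SD of 4 mice. All lines rise from the non-loaded to the loaded limb, and the Ctrl limbs of Chn1os3 go from 86.5 ± 33.6 to 309.5 ± 100.7 CPM.

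All 3 members separated loaded from non-loaded Ctrl limbs without overlap, which 4.91% of the 7192 tested rows did. None did so in NT3, where 1.90% of rows did. All 3 were higher in the loaded limb of 4 of 4 mice in each genotype, as were 11.7% of rows in Ctrl and 7.58% in NT3. The rule used these contrasts, so nothing is read from those counts. For reference, 4.07% of rows passed the edgeR test for loading in Ctrl (3.07% higher and 1.0% lower), 0.417% in NT3, and 0.139% passed for a difference between the genotypes in response.

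The order of the group means was the same for the 3 members. It ran from Ctrl non-loaded through NT3 non-loaded and NT3 loaded to Ctrl loaded. The rule used the loading rise in these libraries, so nothing is read from this order. For Chn1os3 the means were 86.5 ± 33.6, 128.3 ± 44.0, 214.5 ± 83.0 and 309.5 ± 100.7 CPM (SD, n = 4 each). For Mterf2 they were 71.8 ± 37.0, 76.3 ± 18.7, 136.2 ± 58.0 and 174.5 ± 43.1 CPM. For Slc15a3 they were 107.7 ± 10.8, 149.8 ± 38.7, 220.2 ± 45.1 and 242.7 ± 53.1 CPM. The neighbours in this order that differ in genotype, at its bottom and at its top, did not pass the tests given below for any member. Per kb of the full row length, mean levels in loaded Ctrl bone were 111.5 CPM per kb for Mterf2, 101.5 for Chn1os3 and 44.2 for Slc15a3. With the strand setting not given, whether fragments lie along the whole row cannot be told, so the members are not ranked by these values.

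The response to loading was smaller in NT3 for each member, again as a description. The difference in log2 response, NT3 minus Ctrl, was -1.11 for Chn1os3 (SE 0.23), -0.54 for Mterf2 (SE 0.25) and -0.58 for Slc15a3 (SE 0.21). Mean log2 changes over mice, from CPM + 1, were 1.84 ± 0.63 against 0.71 ± 0.16 for Chn1os3 (SD, n = 4 Ctrl against 4 NT3). They were 1.37 ± 0.46 against 0.76 ± 0.36 for Mterf2 and 1.14 ± 0.46 against 0.57 ± 0.19 for Slc15a3. For Chn1os3 the lowest change in Ctrl was 1.28 and the highest in NT3 was 0.85. How many of all rows show such a gap was not counted, and the rule used the loading rise, so nothing is read from it. The forces differed between the genotypes to reach the same strain, so genotype and force cannot be told apart in the difference in response.

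**Figure D2:**
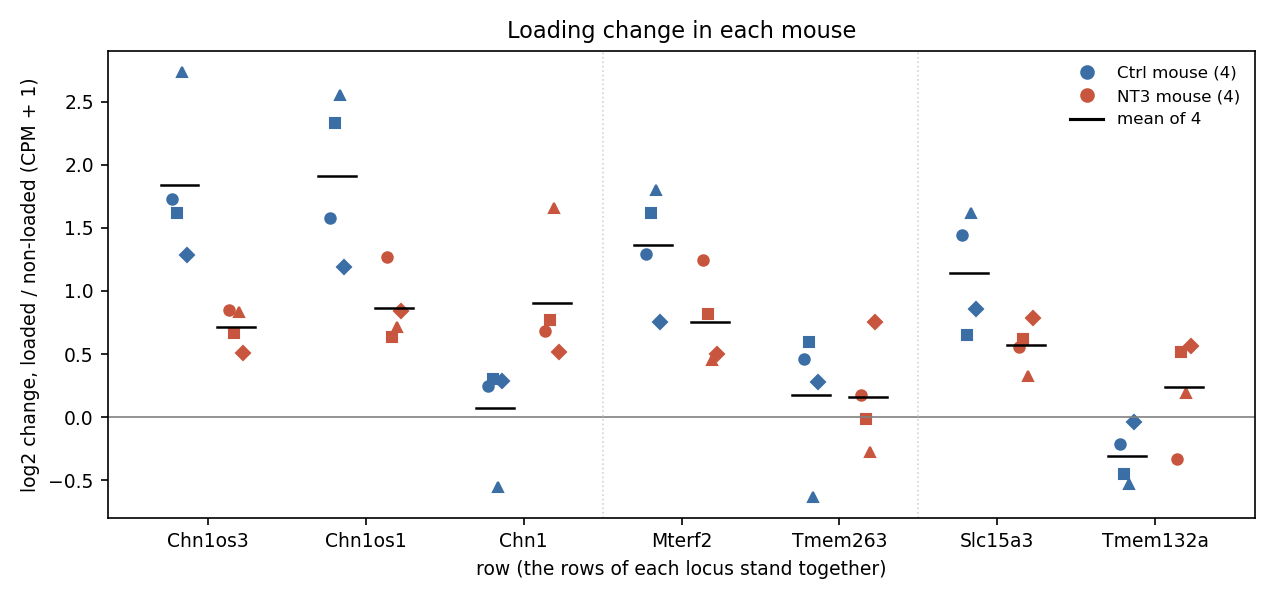
Change in each mouse, as log2 of loaded over non-loaded CPM + 1 (vertical axis), of the members, Chn1os1 and the rows opposite (horizontal axis). Ctrl and NT3 mice are in separate colours, with a line for the mean of 4 mice. All 24 changes of the members lie above 0, while those of Chn1, Tmem263 and Tmem132a lie on both sides of 0. For Chn1os3 the changes run from 1.28 to 2.73 in Ctrl and from 0.51 to 0.85 in NT3.

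Genotype alone did not separate the members. In non-loaded bone, 0 of 3 passed the edgeR quasi-likelihood test with Benjamini-Hochberg adjustment, where 0.579% of 6220 rows passed. NT3 minus Ctrl was 0.56 for Chn1os3 (SE 0.29, adjusted p = 0.71), 0.07 for Mterf2 (SE 0.30, adjusted p = 0.98) and 0.46 for Slc15a3 (SE 0.19, adjusted p = 0.52) on the log2 scale. Slc15a3 was the 1 member with an unadjusted p below 0.05 in edgeR there, with 3 of 4 NT3 limbs above every Ctrl limb and NT3 mouse 4 below them all. The 95% intervals reached 1.18, 0.71 and 0.85, so a log2 difference of 1 lies inside the interval for Chn1os3 and outside it for Mterf2 and Slc15a3. DESeq2 also called 0 of 3.

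In loaded bone 0 of 3 members passed, where 2.65% of 6080 rows did. The differences ran the other way, at -0.52 for Chn1os3 (SE 0.36, adjusted p = 0.65), -0.36 for Mterf2 (SE 0.29, adjusted p = 0.71) and -0.13 for Slc15a3 (SE 0.16, adjusted p = 0.82 in edgeR). Nothing is read from the change of sign, since the same libraries entered the choice of members. With both limbs of a mouse summed, 0 of 3 passed, against 1.98% of 8626 rows. The values were then -0.19 for Chn1os3 (SE 0.34, 95% interval -0.99 to 0.62), -0.22 for Mterf2 (SE 0.33, -0.996 to 0.554) and 0.09 for Slc15a3 (SE 0.15, -0.22 to 0.39). None of the 3 had an unadjusted p below 0.05 in these 2 comparisons, and DESeq2 called none. With limbs summed, all 3 intervals leave out a log2 difference of 1 in either direction, and in loaded limbs alone those of Chn1os3 and Mterf2 do not.

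**Figure D3:**
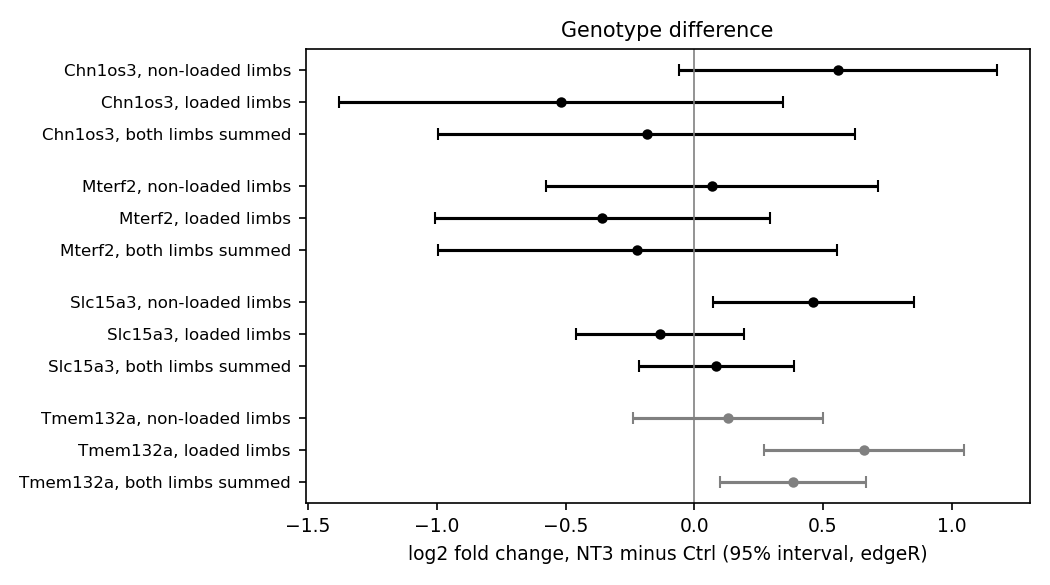
Difference between NT3 and Ctrl for each member and for Tmem132a (grey) as log2 fold change (horizontal axis). It is shown in non-loaded limbs, in loaded limbs and with both limbs of a mouse summed, with 95% intervals from edgeR and 4 mice per genotype. The interval of Slc15a3 in non-loaded limbs, from 0.07 to 0.85, is the one among the members that leaves out 0, and its adjusted p was 0.52. Those of Tmem132a in loaded limbs (0.27 to 1.05, adjusted p = 0.058 in edgeR) and with limbs summed (0.10 to 0.67, adjusted p = 0.20 in edgeR) also leave out 0.

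The rows on the other strand did not pass the test for loading in either genotype. Chn1 held 2 to 20 fragments in a library and changed by 0.15 log2 units in Ctrl (SE 0.55, adjusted p = 0.94 in edgeR) and by 0.95 in NT3 (SE 0.50, adjusted p = 0.72). Tmem263 held 9 to 38 fragments and changed by 0.21 in Ctrl (SE 0.34, adjusted p = 0.85) and 0.19 in NT3 (SE 0.35, adjusted p = 0.97). At those fragment numbers the 95% intervals reached 1.27 for Chn1 and 0.90 for Tmem263 in Ctrl, and 1.965 and 0.91 in NT3. Chn1 was higher in the loaded limb of 3 of 4 Ctrl mice and 4 of 4 NT3 mice. Its mean log2 change in NT3, from CPM + 1, was 0.90 ± 0.51 (SD, n = 4), so a rise of Chn1 there is not excluded.

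Tmem132a held more fragments, 46 to 121 in a library, and lay lower in the loaded limbs of Ctrl mice, where Slc15a3 lay higher. Its means were 98.4 ± 10.3 CPM in Ctrl non-loaded, 80.8 ± 19.0 in Ctrl loaded, 108.5 ± 16.0 in NT3 non-loaded and 128.1 ± 19.2 in NT3 loaded limbs (SD, n = 4 each). It was lower in the loaded limb of 4 of 4 Ctrl mice and higher in 3 of 4 NT3 mice, but neither change passed, at -0.30 (SE 0.18, adjusted p = 0.46 in edgeR) and 0.23 (SE 0.17, adjusted p = 0.86). In loaded limbs it was 1.58-fold higher in NT3 and missed the threshold (log2 0.66, SE 0.19, adjusted p = 0.058 in edgeR). It passed without Ctrl mouse 1 (adjusted p = 0.049), without Ctrl mouse 4 (adjusted p = 0.048) or without NT3 mouse 1 (adjusted p = 0.031).

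Per kb, the balance between the row named for each strand differed by locus. With the strand setting not given, these are ratios of rows as named, and which strand's transcripts each row counts cannot be told from them. Chn1os3 stood at 25.1 times the level of Chn1 in non-loaded Ctrl limbs and 65.8 times in loaded ones (medians of 4 mice). Mterf2 stood at 6.94 and 17.4 times the level of Tmem263. In NT3 the Chn1os3 medians were 26.5 non-loaded and 20.1 loaded, without the shift seen in Ctrl, and the Mterf2 medians were 11.5 and 20.1. Slc15a3 was near the level of Tmem132a in non-loaded Ctrl limbs, with a ratio from 0.66 to 0.92, and from 1.61 to 3.69 in loaded ones. In NT3 the Slc15a3 ratio ran from 0.701 to 1.198 non-loaded and from 0.82 to 1.90 loaded, overlapping. The ratios of Chn1os3 and Mterf2 rest on the few fragments of Chn1 and Tmem263. The members were chosen for rising with loading, so nothing is read from a higher ratio in loaded limbs.

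**Figure D4:**
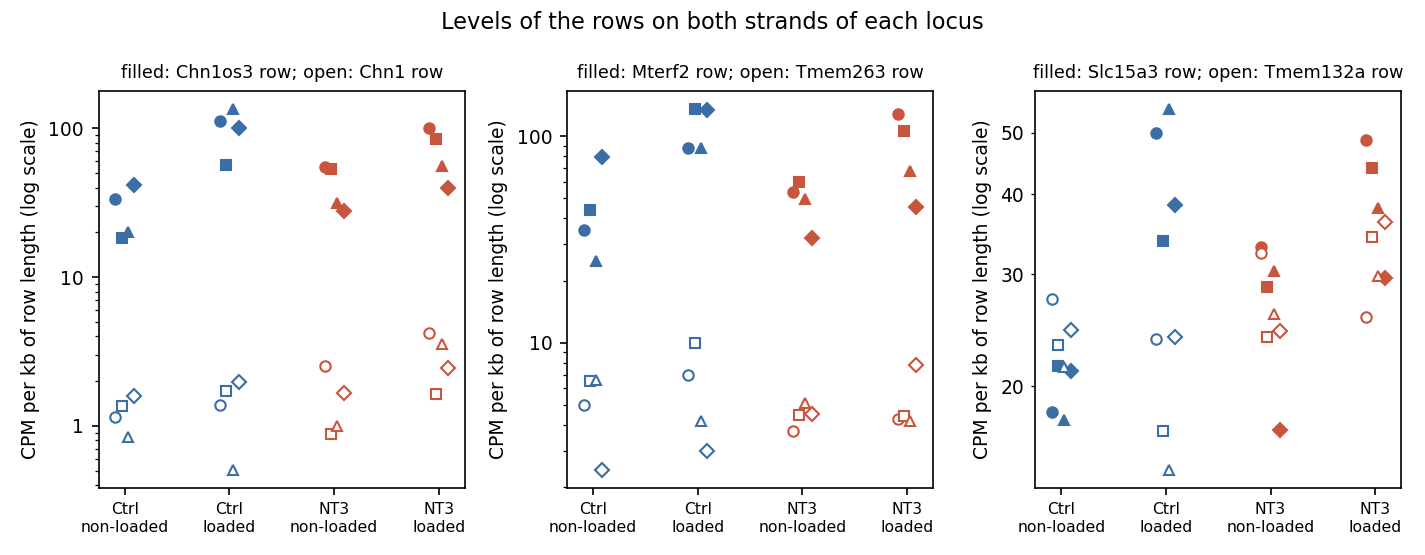
Level per kb of row length (CPM per kb, vertical axis, log scale) of each member (filled) and of the row on the other strand (open) in the 4 groups (horizontal axis), with 1 symbol shape per mouse number. Chn1os3 and Mterf2 lie far above Chn1 and Tmem263 in every library, while Slc15a3 and Tmem132a lie together in non-loaded Ctrl limbs and apart in loaded Ctrl limbs.

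Another noncoding row opposite Chn1 also rose with loading. Chn1os1 (chr2:73658270-73660263, plus strand) starts 61.7 kb from Chn1os3 and shares 533 bases with Chn1 exons, 83.8% of its own. It went from 118.2 ± 66.4 to 402.4 ± 103.3 CPM in Ctrl and from 150.3 ± 38.1 to 282.2 ± 108.5 CPM in NT3 (SD, n = 4 each). The rise was 3.64-fold in Ctrl (log2 1.86, SE 0.17, adjusted p = 2.9e-09 in edgeR) and 1.84-fold in NT3 (log2 0.88, SE 0.17, adjusted p = 0.0055), in 4 of 4 mice each. The NT3 call was lost without NT3 mouse 1 (adjusted p = 0.13), without NT3 mouse 4 (adjusted p = 0.12) and without the mouse block (adjusted p = 0.81). Its response was smaller in NT3 by 0.98 log2 units, which did not pass (SE 0.24, adjusted p = 0.12 in edgeR). That difference passed without Ctrl mouse 4 (adjusted p = 5.2e-04), without NT3 mouse 1 (adjusted p = 0.046) and with no filter on low counts (adjusted p = 0.0042). With both limbs summed, the genotype difference did not pass (log2 -0.26, adjusted p = 0.87 in edgeR).

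Other neighbours within 100 kb of the members did not pass or were too low to test. Chn1os3 had 4 such rows with 2 tested, Mterf2 had 3 with 1 tested and Slc15a3 had 7 with 2 tested. Chn1os1 was the 1 of these 5 tested rows that passed for loading in either genotype. Wipf1, which encodes an actin regulator, changed by -0.48 in Ctrl (adjusted p = 0.68 in edgeR), and Ptgdr2, which encodes a prostaglandin receptor, by -0.14 (adjusted p = 0.91). The clock gene Cry1, beside Mterf2, held 0 to 1 fragments in a library and Chrna1, a muscle acetylcholine receptor subunit beside Chn1os3, 0 to 4.

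Genes known to work with those at the 3 loci were read from lists by row name and by the gene opposite, leaving out the members themselves. The shares of all tested rows called for loading, either way, were 4.07% in Ctrl and 0.417% in NT3, and the lists hold only 1 to 7 tested rows each. Of the chimaerin and Rac list by row name, 6 of 10 genes were tested for loading in Ctrl, with 0 higher and 1 lower, and a median log2 change of -0.03 beside -0.03 over all rows. The lower row was Chn2, for beta-chimaerin (-0.73, SE 0.18, adjusted p = 0.014 in edgeR). It no longer passed without Ctrl mouse 2 (adjusted p = 0.084), without Ctrl mouse 4 (-0.48, adjusted p = 0.18) or with DESeq2 (adjusted p = 0.087), nor without the mouse block (adjusted p = 0.55). By the gene opposite, 7 rows were tested in Ctrl, with a median of 0.01, and 1 was higher, Chn1os1, already described. The 1 lower row, Arhgap15os (-0.57, adjusted p = 0.046 in edgeR), lost its call without any single Ctrl mouse (adjusted p from 0.057 to 0.30), and without the block (adjusted p = 0.12). In NT3, 0 of 6 passed by row name and 1 of 7 by the gene opposite, again Chn1os1.

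Between genotypes, the chimaerin and Rac list by the gene opposite had 0 of 7 rows called in non-loaded limbs, 2 of 7 lower in NT3 in loaded limbs and 1 of 7 lower with limbs summed. The shares of all rows were 0.579%, 2.65% and 1.98%. By row name, 0 of 3, 0 of 3 and 0 of 6 passed. The row 9130019P16Rik, opposite Chn2, Prr15 and Wipf3, was lower in NT3 in loaded limbs (log2 -0.94, SE 0.15, adjusted p = 1.4e-04 in edgeR) and with limbs summed (log2 -0.85, SE 0.16, adjusted p = 0.0059), where the call was lost without Ctrl mouse 2 (adjusted p = 0.066). Gm27206, opposite the phospholipase gene Plcg1, was lower in loaded limbs (log2 -0.54, SE 0.13, adjusted p = 0.019 in edgeR). That call was lost without Ctrl mouse 1 (adjusted p = 0.065), Ctrl mouse 2 (adjusted p = 0.068) or NT3 mouse 4 (adjusted p = 0.070), and with no filter on low counts (adjusted p = 0.11).

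Of the mitochondrial transcription list by row name, 0 of the 4 tested rows other than Mterf2 passed in Ctrl or in NT3. The other MTERF rows were Mterf3 at -0.18 (adjusted p = 0.90 in edgeR) and Mterf4 at -0.16 (adjusted p = 0.73) in Ctrl. The mitochondrial DNA polymerase row Polg changed by -0.33 (adjusted p = 0.38) and the methyltransferase row Tfb1m by 0.16 (adjusted p = 0.86). Their median was -0.17 in Ctrl. By the gene opposite, 0 of 6 rows passed in either genotype.

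Of the SLC15 and endolysosomal sensing list by row name, 0 of the 3 tested rows other than Slc15a3 passed in Ctrl or in NT3. The interferon regulatory factor rows Irf5 (0.12) and Irf7 (-0.01) and the peptidoglycan sensor row Nod2 (0.002) did not pass in edgeR in Ctrl. Of the rows opposite these genes, 0 of 5 passed for loading in either genotype. With both limbs summed, the row Gm43474, opposite the paralog Slc15a4, was higher in NT3 by 0.82 log2 units (SE 0.19, adjusted p = 0.018 in edgeR). That call was lost without Ctrl mouse 1, 2 or 4 or NT3 mouse 3 (adjusted p from 0.052 to 0.10).

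Of the TMEM132 and Wnt secretion list by row name, Tmem132a was the 1 tested of 14 genes. By the gene opposite, the row Gm2670, opposite Wnt5a, was tested beside Slc15a3 and changed by 0.80 in Ctrl (adjusted p = 0.36 in edgeR). Of the growth hormone and IGF list, chosen for the growth link of Tmem263, 0 of 6 tested rows passed by row name, among them Ghr (0.18, adjusted p = 0.92) and Stat5a (-0.32, adjusted p = 0.58). By the gene opposite, 1 of 2 passed: Gm9747, opposite the insulin receptor substrate gene Irs1, rose by 1.201 in Ctrl (SE 0.13, adjusted p = 8.1e-09 in edgeR). In NT3 it changed by 0.52 (adjusted p = 0.067), and passed without NT3 mouse 4 (adjusted p = 0.0018), with no filter on low counts (adjusted p = 0.043) and without ribosomal rows (adjusted p = 0.046).

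Markers of several cell types moved with loading in Ctrl beside the members, osteoblast markers among them. Over all tested rows, 4.07% were called for loading in Ctrl and 0.417% in NT3, and each marker list holds few tested rows. The summed level of the 10 osteoblast marker rows ran from 265.1 to 529.1 CPM in Ctrl non-loaded and from 713.5 to 1076 CPM in Ctrl loaded limbs. In NT3 it ran from 448.1 to 614.3 and from 667.4 to 881.8 CPM. Of 6 tested, 3 rose in Ctrl (Col1a1, Col1a2 and Ibsp) and 1 in NT3 (Col1a1), and none of the 10 was at 0 in every library. Of the 2 rows opposite osteoblast genes, 1 was called higher in each genotype, Abi3. The 6 erythroid marker rows summed to 85.9 to 123.1 CPM in Ctrl non-loaded and 130.0 to 168.0 CPM in Ctrl loaded limbs without overlap, with the 1 tested row, the haem synthesis gene Alas2, called higher (log2 0.54). In NT3 their sums overlapped, from 122.6 to 128.0 and from 93.5 to 145.8 CPM. The 3 rows opposite erythroid genes went the other way in Ctrl, with 1 of 2 tested rows called lower, Hcn3, and 0 higher. They held more fragments, and their sums overlapped, from 1815 to 3514 CPM non-loaded and from 1734 to 3034 CPM loaded. The 6 osteocyte rows summed to 192.9 to 271.7 and 229.0 to 312.6 CPM in Ctrl, with 1 of 3 tested rows called higher, Dmp1. The 3 rows opposite B lymphoid genes summed to 125.0 to 275.7 and 121.7 to 145.7 CPM in Ctrl, with 2 of 3 called lower. By row name, 0 of 1 tested B lymphoid row was called in Ctrl. With the strand setting not given, which strand's transcripts all these rows count cannot be told. The part of these markers in the members' rise was not tested.

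Rows named for markers of macrophages, cells known to express Slc15a3, overlapped between loading states in both genotypes. The 6 macrophage and monocyte rows summed to 166.9 to 191.7 CPM in Ctrl non-loaded and 139.3 to 240.9 CPM in Ctrl loaded limbs, with 0 of 3 tested rows called. In NT3 they summed to 184.5 to 199.9 and 186.4 to 239.6 CPM. The granulocyte row Gm11505, opposite the granule gene Mpo, went down from a range of 2634 to 7917 CPM to one of 1743 to 3786 CPM in Ctrl (log2 -0.75). By row name, 0 of 3 tested granulocyte rows were called in Ctrl. Neuronal marker rows, relevant to Chn1, summed to 1.13 to 14.0 CPM in a library. With the strand setting not given, whether these rows count the transcripts of the marker genes cannot be told. Nothing is read from them about the cells present.

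Across the 16 libraries, Chn1os3 and Slc15a3 shared Tmem259 among their nearest rows, while those of Mterf2 were others. The nearest rows were higher in the loaded limb of 7 or 8 of the 8 mice. The loading rise chose the members, so likeness to such rows is tied to that choice. Likeness was measured as Pearson's r of log2 CPM, and the libraries share mice, groups and depth, so it is a description with no test. Chn1os3 was most like Chn1os1 (r = 0.96), Tmem259, opposite Grin3b (0.94), Abi3, opposite the mineralization gene Phospho1 (0.93), Eme1 (0.92) and the collagen row Col1a2 (0.92). Slc15a3 was most like the row Gm12426 (0.91), Chn1os3 (0.90), H2-Pb (0.87), Tmem259 (0.87) and Fam83c (0.87). Mterf2 was most like Gm15916 (0.89), Gm8062 (0.87), Gm10629 (0.86), Gm26936 (0.86) and Dopey1 (0.86).

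Among themselves the members were less alike than some of these pairs. Chn1os3 and Slc15a3 correlated at 0.90, Chn1os3 and Mterf2 at 0.82 and Mterf2 and Slc15a3 at 0.78 over 16 libraries. For Mterf2, Slc15a3 stood at rank 36 among all tested rows. Over the loading changes of the 8 mice, the r values were 0.81 for Chn1os3 with Slc15a3, 0.82 for Chn1os3 with Mterf2 and 0.59 for Mterf2 with Slc15a3.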

How the data were processed

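Per the submitters' processing notes, the authors aligned reads with STAR 2.4.2a to mm10, counted them with featureCounts 1.4.6 of Subread and used DESeq2. Reads were single-end, 75 bases, from ribosomal RNA-depleted total RNA, per the labels' protocols. The deposited files hold whole-number fragment counts per gene symbol, with a row length, and 1 file per library. Rows were matched by symbol to GENCODE M21 (45250 of 47517 rows, 85.0% of fragments). Opposite means exons on the other strand that overlap the row's exons by 20 bases or more.

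The deposited counts were analysed in edgeR 4.0.16 (R 4.3.3): rows were kept by filterByExpr with a minimum count of 10, normalized by TMM and tested by the robust quasi-likelihood test, with Benjamini-Hochberg adjustment at 0.05. Loading was fitted over all 16 libraries with the mouse as a block. Genotype was fitted over 8 libraries of 1 limb, or 8 mice with limbs summed. Tested rows held 95.4% to 97.4% of the fragments of a library. The series' design text states that limbs are paired by mouse. Checked on residuals, the limbs of a mouse correlated by 0.045 to 0.18. In all but Ctrl mouse 4 (0.045 against 0.16) this exceeded the correlation of the non-loaded limb with other loaded limbs of that genotype.

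The members and gene lists were chosen with earlier results of these data known. Named rows were the members, the rows opposite them, tested neighbours within 100 kb, list members and, for each member, the 5 rows most like it by correlation. Alternatives were other size factors, DESeq2 1.42.0, no filter, no ribosomal rows, no block and each mouse left out. The method was tested on simulated data.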

Additional observations from a re-analysis of the deposited data

Results flagged for a closer look

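Among 42 groups of 4 values examined for the members, the rows opposite them and Chn1os1, 2 had an end value far from the rest, and chance alone gives about 1 in 20. The log2 loading change of Chn1 in Ctrl was lowest at -0.56 in mouse 3, on 4 fragments in the non-loaded and 2 in the loaded limb. The level of Tmem263 in NT3 loaded limbs was highest at 29.4 CPM in mouse 4, on 21 fragments. Neither value belongs to a member row, and both rest on few fragments.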

How the results depend on the processing

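Of 108 genotype values of the 3 members under other settings, 103 kept their direction and 5 changed sign, and none passed in any setting. Leaving out a mouse moved Mterf2 in non-loaded limbs from -0.14 to 0.49 (-0.0053 without Ctrl mouse 1, -0.14 without Ctrl mouse 3, -0.024 without NT3 mouse 2). With both limbs summed it moved Chn1os3 from -0.39 to 0.011 and Slc15a3 from -0.025 to 0.25. All 93 loading values of the members kept their direction. They are not tested here, and the rule used the loading rise, so no p-value of a member for loading is read as support. As a description of how the fit depends on settings, in 11 of the 93 an adjusted p below 0.05 in edgeR was lost. For Chn1os3 in NT3 it was 0.26, 0.12 and 0.13 without NT3 mouse 1, 2 or 3 and 0.90 without the block. For Mterf2 in NT3 it was 0.47 and 0.17 without NT3 mouse 1 or 2 and 0.80 without the block, and in Ctrl 0.10 without the block. For the Chn1os3 difference in response it was 0.30 without Ctrl mouse 3, 0.13 without NT3 mouse 2 and 0.997 without the block. Without the replicate block for the mouse, the log2 loading values in Ctrl were 1.83 for Chn1os3, 1.28 for Mterf2 and 1.17 for Slc15a3, and in NT3 0.74, 0.85 and 0.56. Over all rows, the calls for loading in Ctrl went from 293 to 171 without the block, 169 with DESeq2 and 163 to 270 without 1 mouse. In NT3 they went from 30 to 5, 19 and 17 to 22. For the difference in response they went from 10 to 0 without the block in edgeR (335 at an unadjusted p below 0.05, and 10 with DESeq2 and the block), 17 with no filter and 7 to 14 without 1 mouse. Genotype calls in non-loaded limbs went from 36 to 71 with no filter and 12 to 77 without 1 mouse, in loaded limbs from 161 to between 119 and 201, and with both limbs summed from 171 to between 88 and 209. The cause of these changes was not tested. The rows opposite Chn1os3 and Mterf2 held few fragments, which widens their intervals. No pairing between genotypes was possible because Ctrl and NT3 limbs came from different mice. The mouse numbers within a genotype follow the order of deposit.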
